A study of Mus musculus with 24 samples.

Results

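The 10 genes described here are members of the Notch pathway and Sox2, a transcription factor of the cells that surround auditory hair cells (HCs). They were the receptor gene Notch1, the ligand genes Jag1, Jag2 and Dll1, the glycosyltransferase gene Lfng, the target genes Hes1, Hes5, Hey1 and Hey2, and Sox2. Each was taken by its symbol from the Entrez gene identifiers of the deposited count table, and all 10 were found among its 24454 genes. Organs of Corti (OCs) were dissected from C57BL/6N wild-type mice of both sexes at postnatal day 5, and each library held the RNA of 6 OC explants pooled. All explants were first cultured for 24 h without drug. They were then cultured for 6 or 24 h without drug (CTRL), with 50 µM gentamicin (GM), with 10 µM pioglitazone (PIO) or with both drugs (PIO + GM). The 24 libraries made 8 groups of 3, and the labels do not say whether the 3 came from separate litters or days, so that the p-values measure the spread between these pools.

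Notch receptors are activated by Jagged and Delta ligands on a neighbouring cell, and their cleaved intracellular part joins the DNA-binding protein RBPJ to switch on target genes of the Hes and Hey families. In the developing OC some ligands, such as Jag2, are carried largely by HCs, whereas Jag1 is a ligand of the supporting cell lineage. Signalling in the cells next to HCs keeps those cells as supporting cells. Gentamicin is an aminoglycoside antibiotic that damages HCs, and pioglitazone is an agonist of the nuclear receptor PPAR gamma.

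RefSeq start sites were matched for 8 of the 10 genes, and the 250 bases before each start site were searched for the letters TGGGAA, the core of the site bound by RBPJ, on either strand. Hes5 and Lfng each held the core 2 times, Hey2 held it 1 time, and it was not found in the windows of Notch1, Jag1, Jag2, Dll1 (2 start sites) and Sox2. Hes1 and Hey1 were not analysed here. The 3 windows with the core are printed because 2 of their genes, Hes5 and Hey2, are textbook Notch targets and because Hes5 was the gene whose level moved over the widest range, and the capitals mark the core or its reverse complement TTCCCA. The Hes5 window lay at chr4:154960673-154960922 (plus strand), the Lfng window at chr5:140607091-140607340 (plus strand) and the Hey2 window at chr10:30842784-30843033 (minus strand), all on GRCm38.p6.
Hes5: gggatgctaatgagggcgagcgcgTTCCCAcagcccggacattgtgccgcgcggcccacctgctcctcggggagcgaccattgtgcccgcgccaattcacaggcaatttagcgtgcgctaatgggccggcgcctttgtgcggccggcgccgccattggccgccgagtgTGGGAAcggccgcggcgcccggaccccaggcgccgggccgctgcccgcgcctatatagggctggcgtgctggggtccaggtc
Lfng: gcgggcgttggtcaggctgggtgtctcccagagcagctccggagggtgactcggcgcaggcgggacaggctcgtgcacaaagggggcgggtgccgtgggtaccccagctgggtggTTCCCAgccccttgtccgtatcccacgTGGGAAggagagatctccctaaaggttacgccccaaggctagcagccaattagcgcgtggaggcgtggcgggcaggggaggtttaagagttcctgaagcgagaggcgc
Hey2: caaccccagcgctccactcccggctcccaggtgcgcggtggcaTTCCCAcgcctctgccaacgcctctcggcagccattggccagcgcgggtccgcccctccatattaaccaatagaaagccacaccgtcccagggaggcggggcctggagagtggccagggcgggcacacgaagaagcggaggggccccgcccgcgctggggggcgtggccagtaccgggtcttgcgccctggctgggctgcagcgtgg

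In the Hes5 window the cores began 226 bases (reverse strand) and 82 bases (forward strand) before the start site. Both belonged to the longer form GTGGGAA, which contains the core, as did 1 of the 2 in Lfng and the 1 in Hey2. Over 32851 windows of the same length, 21.6% held the core and 2.77% held it 2 or more times, whereas 5.42% held the longer form and 0.161% held that 2 or more times. A match describes these letters and is not a bound site.

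The libraries held 7211357 to 15548856 counts, and 3 counts equalled 0.193 to 0.416 CPM (counts scaled to library size, here with edgeR's TMM factors). All 12 hair cell and 10 supporting cell marker genes on fixed lists had counts in every library, including Myo7a (30.9 to 96.0 CPM) and Pou4f3 (3.64 to 21.1 CPM). Because whole explants were pooled, fewer cells of a type and less RNA per cell cannot be told apart. Marker genes of Schwann cells, spiral ganglion neurons, mesenchyme, endothelium and macrophages were also present, and none of these markers was at 0 in any library. At 6 h, 3 libraries stood apart: in PIO replicate 2 and PIO + GM replicates 2 and 3, the deviation of each gene from its mean over all libraries fell with the gene's GC content (Spearman's rho across genes of -0.58, -0.49 and -0.68, against -0.10 to 0.39 in the other 21 libraries). The calls among the 10 genes at 6 h with pioglitazone are therefore given with and without these 3 libraries. Without them, PIO + GM at 6 h is left with replicate 1 alone and PIO at 6 h with replicates 1 and 3.

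Per base of gene length, Jag1 and Notch1 were the most abundant of the 10 genes and Hes5 and Dll1 the least. Over 24 libraries, the level in RPKM (counts scaled to library size and gene length) was 44.9 ± 13.0 (SD) for Jag1 and 38.3 ± 11.3 for Notch1. It was 29.5 ± 6.91 for Hey1, 23.0 ± 7.65 for Sox2, 21.5 ± 7.54 for Lfng and 13.7 ± 4.45 for Hes1. It was 7.50 ± 2.66 for Jag2, 6.74 ± 2.28 for Hey2, 2.15 ± 2.28 for Hes5 and 1.14 ± 0.849 for Dll1. Neighbours in this order were often not separated: Jag1 lay above Notch1 in 15 of 24 libraries, Sox2 above Lfng in 17, Jag2 above Hey2 in 13 and Hes5 above Dll1 in 15. The step from Hes1 down to Jag2 held in 24 of 24. Hes5 also varied most between libraries, with 44.0-fold between the lowest (0.254 CPM) and the highest (11.2 CPM) library, and Hey1 least, with 2.39-fold.

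**Figure D1:**
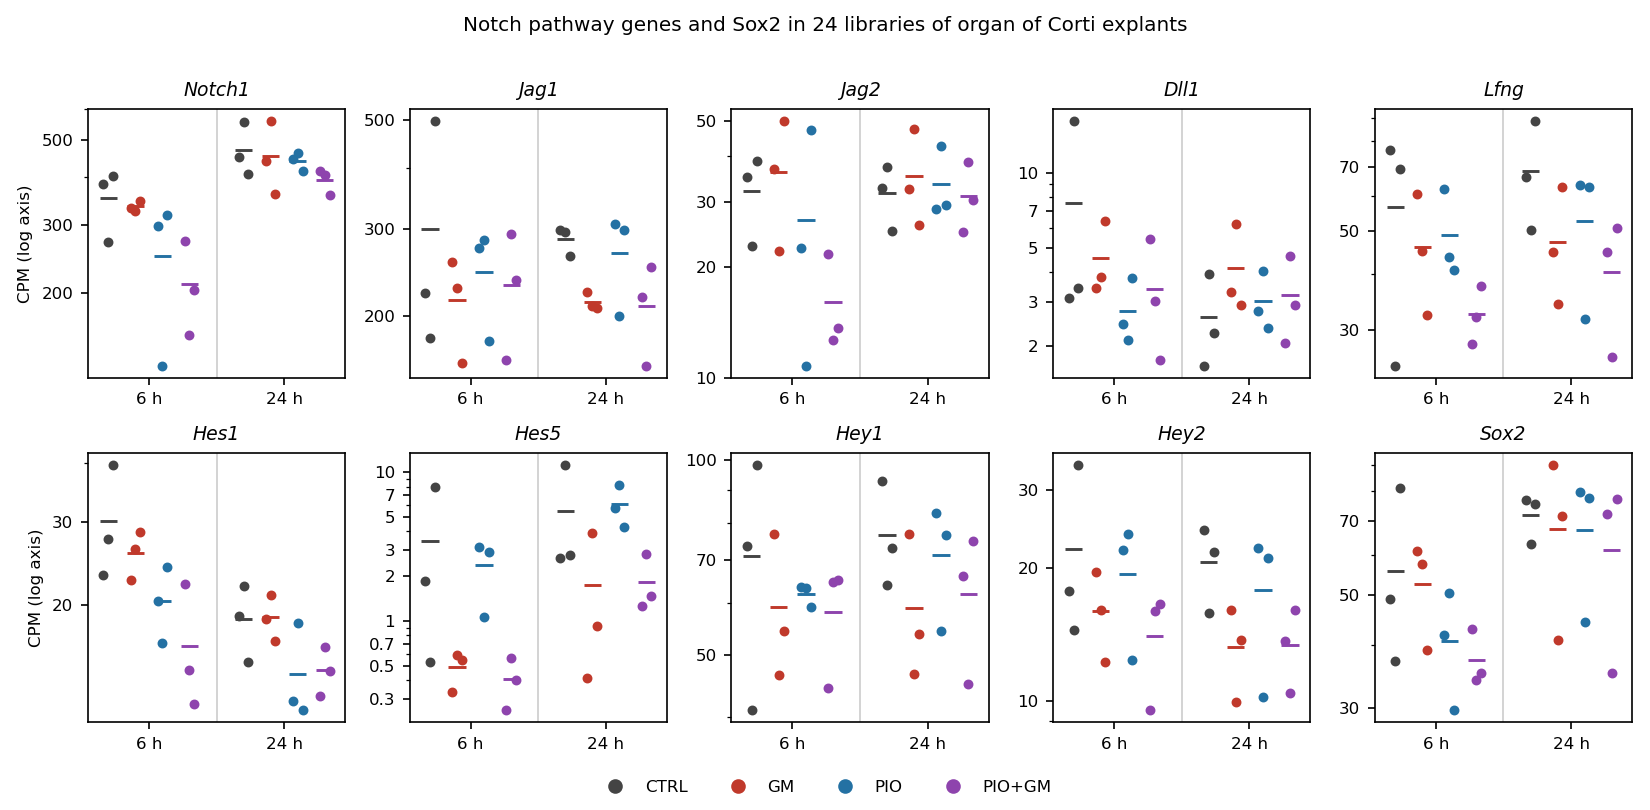
CPM (log axis) of each of the 10 genes in every library at 6 h and 24 h, coloured by treatment, with replicates 1 to 3 from left to right and a bar at the group mean. Hes5 spans from 0.254 to 11.2 CPM, while Hey1 stays between 41.1 and 98.3 CPM.

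Hes5, a transcriptional repressor induced by Notch signalling, was on average lower in explants cultured with gentamicin at 6 h and at 24 h. The difference passed edgeR's quasi-likelihood test only when both times were averaged. At 6 h, the CTRL libraries held 1.85, 0.529 and 7.90 CPM and the PIO libraries 3.16, 1.06 and 2.89 CPM. The GM libraries held 0.336, 0.589 and 0.544 CPM and the PIO + GM libraries 0.254, 0.561 and 0.404 CPM, which were 3 to 8 counts each. Thus 5 of the 6 libraries without gentamicin lay above all 6 with it, and CTRL replicate 2 lay among them. At 24 h, Hes5 was at 2.63, 11.2 and 2.79 CPM in CTRL and at 5.78, 8.19 and 4.29 CPM in PIO. It was at 0.413, 3.92 and 0.934 CPM in GM and at 1.26, 2.80 and 1.47 CPM in PIO + GM. Here 4 of the 6 libraries with gentamicin lay below all 6 without it, and GM replicate 2 and PIO + GM replicate 2 reached into their range. At 24 h each GM library lay below the CTRL library of its number, and each PIO + GM library below its PIO library. At 6 h the same held except for replicate 2 of GM and CTRL. The labels do not say what a number marks.

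**Figure D2:**
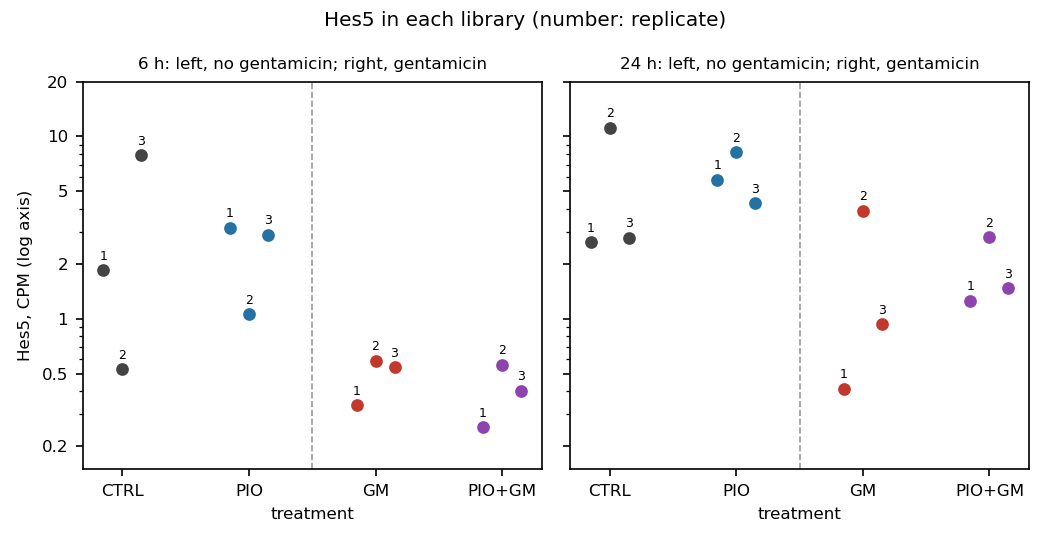
Hes5 in CPM (log axis) in each library at 6 h (left) and 24 h (right), numbered by replicate, with the groups without gentamicin left of the dashed line. At 6 h the 6 libraries with gentamicin lie at 0.589 CPM or below and 5 of the 6 without it lie above them.

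In edgeR's quasi-likelihood test, the log2 fold change of Hes5 with gentamicin was -2.78 ± 0.90 (SE) for GM against CTRL at 6 h and -1.65 ± 0.77 at 24 h. With single libraries left out these ran from -3.28 to -1.26 at 6 h and from -3.01 to -0.61 at 24 h. Averaged over cultures with and without pioglitazone it was -2.65 ± 0.66 at 6 h (adjusted p = 0.278) and -1.68 ± 0.54 at 24 h (adjusted p = 0.514). The Benjamini-Hochberg adjustment ran over all 16317 genes tested. None of these 4 comparisons put Hes5, or any of the 10 genes, past an adjusted p of 0.05, and few genes of any kind passed: 0% for GM against CTRL at 6 h, 0.0123% at 24 h, and 0.0123% and 0.313% for the averaged comparisons at 6 h and 24 h. The unadjusted p lay under 0.05 for 1, 1, 1 and 2 of the 10 genes in these comparisons, against 1.49%, 1.67%, 2.12% and 2.83% of all genes. Hes5 at 6 h in the averaged comparison was called by edgeR's likelihood ratio test (adjusted p = 0.0119) and by DESeq2 (adjusted p = 0.00722). The gentamicin effect on Hes5 differed between 24 h and 6 h by 0.97 ± 0.85 on the log2 scale, and the interaction of both drugs was 0.26 ± 1.41 at 6 h and -0.08 ± 1.08 at 24 h. None of these 3 differences passed the test.

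With both times averaged as well, a comparison chosen after the data were seen, 12 libraries with gentamicin were set against 12 without. Hes5 was then lower by a log2 fold change of -2.17 ± 0.43 (adjusted p = 0.0293) and was the only one of the 10 genes called, against 0.276% of all genes. Leaving out single libraries kept the fold change between -2.51 and -1.79, but the adjusted p reached 0.0711 and the call was lost without any 1 of 15 of the 24 libraries. Without the 3 libraries that stood apart it was -2.42 (adjusted p = 0.121).

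Hey2, Lfng and Jag1 were also on average lower with gentamicin, by far less than Hes5, and none passed the test. Hey2, a Hes-related repressor known from pillar cells, differed by -0.50 ± 0.17 (adjusted p = 0.597) over both times. Lfng, whose enzyme adds sugars to Notch receptors and alters their response to ligands, differed by -0.45 ± 0.18. Jag1, the ligand of the supporting cell lineage, differed by -0.34 ± 0.15 (-0.40 to -0.19 with single libraries left out). For both the adjusted p was above 0.99. The unadjusted p of all 3 genes and of Hes5 was under 0.05, 4 of the 10 genes against 3.66% of all genes. Jag1 was the only one of the 10 genes whose groups did not overlap at 24 h between CTRL (299.5, 296 and 265 CPM) and GM (224, 210 and 207 CPM), against 5.69% of all genes tested. Over both times, Notch1 lay at -0.13 ± 0.13, Hes1 at -0.13 ± 0.12, Hey1 at -0.23 ± 0.14, Sox2 at -0.11 ± 0.17, Jag2 at -0.13 ± 0.20 and Dll1 at 0.07 ± 0.28. The median over the 10 genes was -0.18 and that over all genes -0.01.

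Marker genes were measured beside these results. The summed level of the 10 supporting cell markers at 6 h ran from 2950 to 5409 CPM (median 4689) with gentamicin and from 3419 to 7493 CPM (median 4834) without it, and the 12 hair cell markers from 512 to 760 CPM (median 685) and from 457 to 871 CPM (median 683). At 24 h the supporting cell markers had medians of 6290 and 6282 CPM with and without gentamicin, and the hair cell markers 749 and 904 CPM. In the averaged gentamicin comparisons 0 of the 12 hair cell and 0 of the 10 supporting cell markers passed the test at either time. The unadjusted p was under 0.05 for 5 hair cell markers at 24 h, of which DESeq2 and the likelihood ratio test each called 1 (Lhx3), and for no supporting cell marker. At 24 h, 11 of the 12 hair cell markers had log2 fold changes below 0 (median -0.37, range -1.95 to 0.01), and 6 of the 10 supporting cell markers (median -0.08). At 6 h 9 of the 12 (median -0.09) and 9 of the 10 (median -0.17) lay below 0. Over both times, the comparison in which Hes5 was called, 12 of the 12 (median -0.27, lowest adjusted p = 0.0847) and 9 of the 10 (median -0.06) did. Myo7a, a motor protein gene of HCs, differed by -0.11 ± 0.17 at 24 h, Pou4f3, their survival factor, by 0.01 ± 0.26 and Atoh1, their specifying factor, by -0.04 ± 0.41. Within CTRL at 6 h, replicate 3 had both the highest supporting cell sum (7493 CPM) and the highest Hes5, Jag1, Hey1, Hey2 and Sox2, and replicate 2 both the lowest sum (3419 CPM) and the lowest of these 5 genes. The other groups did not all follow this order for Hes5. In GM and in PIO at 6 h the replicate with the highest supporting cell sum had the lowest Hes5, and in PIO + GM at 6 h replicate 1 had the lowest of both. At 24 h replicate 2 had the lowest supporting cell sum and the highest Hes5 in all 4 groups, as in CTRL, where its sum was 6159 CPM and that of replicate 1, with the lowest Hes5, was 7484 CPM. The part of cell composition in the Hes5 difference was not tested.

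Pioglitazone for 6 h went with lower Notch1 and Hes1, and all 10 genes had log2 fold changes below 0, although Hes5, Hey1 and Lfng lay above 0 once the GC trend of each library was removed. Notch1, the receptor gene, was at 383, 271 and 401 CPM in CTRL and at 333, 327 and 347 CPM in GM. It was at 298, 130 and 319 CPM in PIO and at 273, 156 and 204 CPM in PIO + GM, so that PIO + GM lay below GM without overlap while PIO overlapped CTRL. Hes1, a repressor downstream of Notch and of other pathways, was at 23.1, 27.6 and 39.7 CPM in CTRL and at 22.5, 26.3 and 28.6 CPM in GM. It was at 20.3, 16.6 and 24.1 CPM in PIO and at 22.1, 14.5 and 12.3 CPM in PIO + GM, and 5 of the 6 libraries with pioglitazone lay below all 6 without it.

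Averaged over cultures with and without gentamicin, Notch1 fell by 0.58 ± 0.18 (adjusted p = 0.0338) and Hes1 fell by 0.61 ± 0.16 (adjusted p = 0.0198) on the log2 scale. These were 2 of the 10 genes, against 16.1% of all genes tested. Jag2 (-0.72 ± 0.28, adjusted p = 0.083), Dll1 (-0.91 ± 0.39, adjusted p = 0.111) and Sox2 (-0.48 ± 0.24, adjusted p = 0.163) did not pass, although DESeq2 called Jag2 (adjusted p = 0.0487). Dll1 ran from -1.17 to -0.31 when single libraries were left out. Without the 3 libraries that stood apart none of the 10 genes passed, and the values were -0.31 for Jag2, -0.51 for Dll1 and -0.47 for Sox2. In the pairwise comparisons 0 of the 10 genes passed for PIO against CTRL (0.337% of all genes) and 0 for PIO + GM against GM (1.32%), with unadjusted p under 0.05 for 2 and 3 of them, against 15.2% and 25.0% of all genes. The likelihood ratio test called none in either, and DESeq2 called Jag2 in the second (adjusted p = 0.0412). In PIO + GM against GM, the groups of Notch1, Hes1 and Jag2 did not overlap, 3 of the 10 genes against 23.0% of all genes. Jag2, a ligand of HCs, was at 36.8, 22.0 and 49.8 CPM in GM and at 21.7, 12.7 and 13.6 CPM in PIO + GM. Its log2 fold change was -1.17 ± 0.40 (adjusted p = 0.101), and -0.74 without the 3 libraries. Without them PIO + GM at 6 h holds replicate 1 alone and PIO replicates 1 and 3. With so few libraries a lost call is not evidence that there was no difference.

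Both calls moved with the 3 libraries that stood apart at 6 h, which all had received pioglitazone. These 3 held the 3 lowest values of Notch1 and of Jag2 among all 24 libraries. Both genes are rich in GC: 57.1% of the bases of the Notch1 transcripts and 61.9% of those of Jag2, against a median of 48.8% over all genes. Without the 3 libraries the difference was -0.24 for Notch1 (adjusted p = 0.499) and -0.33 for Hes1 (adjusted p = 0.469), and with the GC trend of each library removed it was -0.32 for Notch1 (adjusted p = 0.0775) and -0.57 for Hes1 (adjusted p = 0.0242). Hes1 has a GC content of 50.7%. Fitting the 12 libraries of the time point alone gave -0.60 for Notch1 (adjusted p = 0.138) and -0.62 for Hes1 (adjusted p = 0.0971). Leaving out single libraries lost the call of Notch1 in 8 of 24 cases and that of Hes1 in 4 of 24, with adjusted p of up to 0.0986 and 0.0593. In the same comparison 5 of the 12 hair cell markers fell, among them Myo7a (-0.68 ± 0.17, adjusted p = 0.0139) and Pou4f3 (-1.02 ± 0.27, adjusted p = 0.0198), and 0 of the 10 supporting cell markers passed. The other 7 hair cell markers did not pass, the 12 ran from -1.67 to 0.49 with 4 above 0, and their summed level had a median of 718 CPM with and 650 CPM without pioglitazone. Of the 7 glial markers 2 fell, and of the 6 endothelial and 6 mesenchymal markers 1 each. Over all genes 16.1% were called in this comparison. Without the 3 libraries that stood apart none of the markers on these lists passed, with Myo7a at -0.53 (adjusted p = 0.268) and Pou4f3 at -1.01 (adjusted p = 0.231), and 5 hair cell markers had an unadjusted p under 0.05. Their part in the Notch1 and Hes1 differences was not tested.

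**Figure D3:**
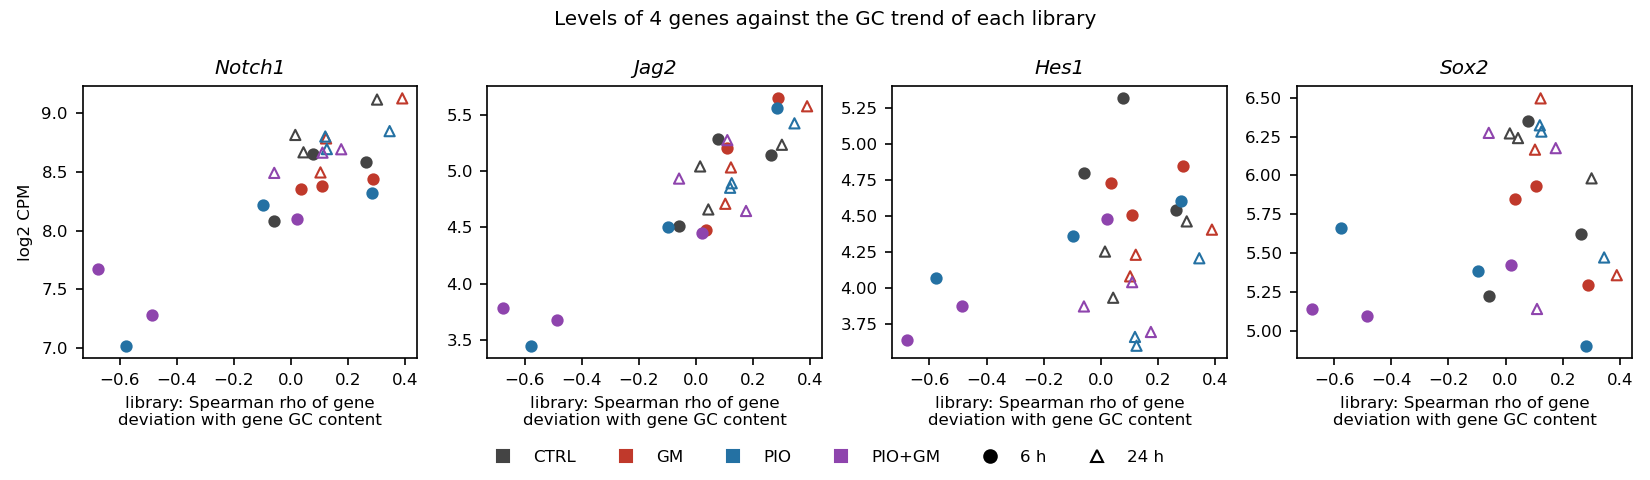
Level (log2 CPM) of Notch1, Jag2, Hes1 and Sox2 in each library against that library's GC trend (Spearman's rho across genes between each gene's deviation from its mean and its GC content), coloured by treatment, with circles for 6 h and triangles for 24 h. The 3 libraries at -0.49 or below are the 3 lowest for Notch1 and Jag2 but not for Hes1 and Sox2.

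After 24 h of pioglitazone none of the 10 genes passed the test, whether averaged over gentamicin (2.79% of all genes called), for PIO against CTRL (0.153%) or for PIO + GM against GM (0.110%). The unadjusted p was under 0.05 for 1, 0 and 0 genes, against 16.9%, 9.93% and 7.47% of all genes, and DESeq2 and the likelihood ratio test also called none. The 1 gene was Hes1, at 12.5, 18.3 and 11.9 CPM in PIO and 12.8, 16.3 and 14.5 CPM in PIO + GM, against 18.9, 21.9 and 15.1 CPM in CTRL and 18.6, 21.0 and 16.7 CPM in GM. Its PIO + GM libraries lay below all GM libraries, as 1 of the 10 genes that did not overlap against 18.4% of all genes, while PIO overlapped CTRL, and the averaged difference was -0.38 ± 0.16 (adjusted p = 0.238). Notch1 differed by -0.15 ± 0.18 at this time, and its change of the pioglitazone effect from 6 h to 24 h was 0.43 ± 0.25 (adjusted p = 0.491). For Hes1 that change was 0.23 ± 0.23, and none of the 10 genes was called for a change of the pioglitazone effect (0.00613% of all genes) or of the gentamicin effect (0%), or for the interaction of both drugs at 6 h (0%) or 24 h (0%). No unadjusted p was under 0.05 in these 4 comparisons, and DESeq2 and the likelihood ratio test called none.

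The length of culture went with the clearest differences. Averaged over the 4 treatments, Notch1, Hes5 and Sox2 were higher and Hes1 lower at 24 h than at 6 h, which made 4 of the 10 genes, a smaller share than the 62.6% of all genes called in this comparison. Notch1 ran from 360 to 559 CPM (median 428) at 24 h and from 130 to 401 CPM (median 308) at 6 h, and 10 of the 12 libraries at 24 h lay above all 12 at 6 h. Its log2 fold change was 0.64 ± 0.13 (adjusted p = 0.00022), and 0.47 (adjusted p = 0.00033) without the 3 libraries that stood apart. Hes5 ran from 0.413 to 11.2 CPM (median 2.80) at 24 h and from 0.254 to 7.90 CPM (median 0.575) at 6 h, with a log2 fold change of 1.50 ± 0.43 (adjusted p = 0.0049). Its ranges overlapped widely over all libraries and also overlapped within CTRL. Within GM only the 24 h library at 0.413 CPM reached into the 6 h range, and within PIO and PIO + GM the ranges did not overlap.

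Sox2, which supporting cells keep from the prosensory stage on, ran from 35.1 to 90.1 CPM (median 73.8) at 24 h and from 29.8 to 81.4 CPM (median 42.3) at 6 h. It rose by 0.54 ± 0.17 (adjusted p = 0.0081). Hes1 fell from a median of 22.8 CPM (12.3 to 39.7) to 16.5 CPM (11.9 to 21.9), by 0.46 ± 0.12 (adjusted p = 0.0019). The 4 calls remained when any single library was left out, with log2 fold changes of 0.57 to 0.71 for Notch1, 1.17 to 1.89 for Hes5, 0.48 to 0.64 for Sox2 and -0.51 to -0.38 for Hes1. The other members did not pass: Jag2 at 0.31 ± 0.20, Lfng at 0.18 ± 0.18, Hey1 at 0.10 ± 0.14, Jag1 at -0.02 ± 0.15, Hey2 at -0.14 ± 0.17 and Dll1 at -0.41 ± 0.28. Of the supporting cell markers 5 of 10 rose and none fell, with summed medians of 4834 CPM at 6 h and 6282 CPM at 24 h, and 5 of the 12 hair cell markers rose and 1 fell, both a smaller share than over all genes. Of the 6 neuron markers 5 fell (summed medians of 169 CPM at 6 h and 62.4 CPM at 24 h), and of the 8 macrophage markers 5 rose (65.6 and 104 CPM). Of the glial markers 1 rose and 3 fell, of the mesenchymal markers 3 rose and 1 fell, and of the endothelial markers 1 rose and 1 fell. Their part in the rise of Sox2, Notch1 and Hes5 was not tested.

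**Figure D4:**
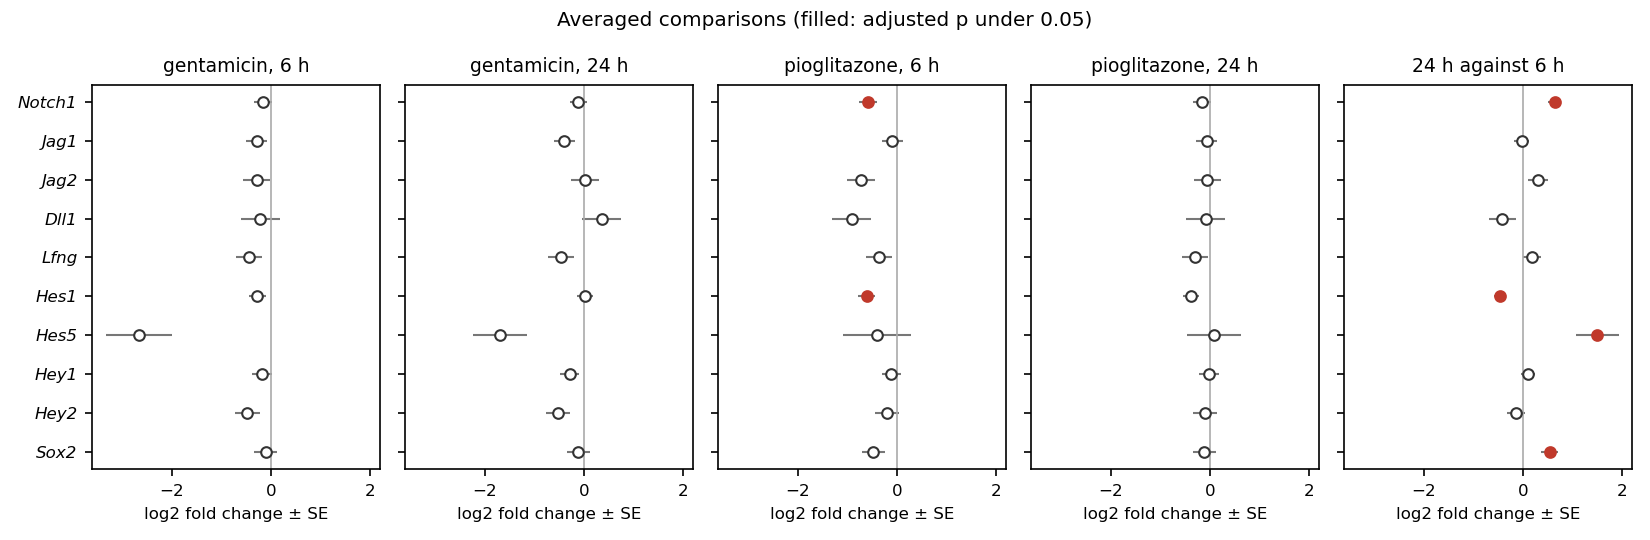
Log2 fold change ± SE of the 10 genes in the averaged comparisons of gentamicin, pioglitazone and culture time, filled where the adjusted p was under 0.05. Hes5 has the lowest values with gentamicin (-2.65 at 6 h, -1.68 at 24 h) and the highest with time (1.50).

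Within single treatments fewer time differences passed. In CTRL, Hes1 (-0.69 ± 0.23, adjusted p = 0.0309) and Dll1 (-1.52 ± 0.56, adjusted p = 0.0485) fell, against 28.0% of all genes called. The Dll1 call was lost without any 1 of 16 of the 24 libraries, with no filter on low counts (adjusted p = 0.0650) and with unscaled library sizes (adjusted p = 0.0505). Its size moved most with CTRL replicate 2 at 6 h, which held 16.2 CPM against 3.13 and 3.43 CPM in the other two, and without it the difference was -0.31 (adjusted p = 0.713). That library also had the highest macrophage (124 CPM) and endothelial (415 CPM) marker sums among the 12 libraries at 6 h. Without CTRL replicate 3 at 6 h, the Hes1 difference in CTRL was -0.44 (adjusted p = 0.185), and its call was also lost without CTRL replicate 2 at 6 h and without CTRL replicate 1 or 3 at 24 h. In GM none of the 10 passed (24.2% of all genes), with an unadjusted p under 0.05 for 0 of them, and DESeq2 and the likelihood ratio test called none.

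With pioglitazone, Notch1 was the 1 member called by the quasi-likelihood test, and rose by 0.82 ± 0.25 in PIO (adjusted p = 0.0215, 29.0% of all genes called) and by 0.90 ± 0.26 in PIO + GM (adjusted p = 0.0110, 34.6%). Its 24 h libraries (446, 460 and 414 CPM in PIO, 414, 406 and 360 CPM in PIO + GM) lay above all 6 h libraries of the same treatment, as they did in CTRL (406 to 555 against 271 to 401 CPM) and in GM (361 to 559 against 327 to 347 CPM). Members whose 24 h and 6 h libraries did not overlap numbered 2 of 10 in CTRL (Notch1 and Hes1, against 46.4% of all genes), 2 in GM (Notch1 and Hes1, 44.9%), 2 in PIO (Notch1 and Hes5, 41.3%) and 3 in PIO + GM (Notch1, Hes5 and Jag2, 43.1%), each a smaller share than over all genes. In PIO + GM the log2 fold changes of Hes5 (2.14 ± 0.98, adjusted p = 0.0952) and Jag2 (0.96 ± 0.40, adjusted p = 0.0699) did not pass, while the likelihood ratio test (adjusted p = 0.0422 and 0.0485) and DESeq2 (adjusted p = 0.0402 and 0.0496) called both. Without the 3 libraries that stood apart the differences of Notch1 were 0.51 in PIO and 0.53 in PIO + GM, where replicate 1 was the only library left at 6 h. The call was lost in PIO without replicate 2 at 6 h and without replicate 1 or 2 at 24 h, and in PIO + GM without replicate 2 at 6 h, with adjusted p of up to 0.102 and 0.0720.

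Beyond the 10 members, 49 further genes of the pathway were on a fixed list, of which 45 passed the filter on low counts and Dll3, Hes2, Hes3 and Hes7 did not. With gentamicin none of the 45 was called by edgeR's quasi-likelihood test, and the unadjusted p was under 0.05 for 0 at 6 h and 1 at 24 h in the averaged comparisons. At 24 h the lowest p in the averaged comparison belonged to Dlk2, a noncanonical Notch ligand gene (-1.08 ± 0.27, adjusted p = 0.126), which DESeq2 (adjusted p = 0.0174) and the likelihood ratio test (adjusted p = 0.0190) called. It was at 1.52 to 4.79 CPM with and 4.74 to 10.0 CPM without gentamicin. Nrarp, a feedback inhibitor induced by Notch, differed by -0.31 ± 0.16 and Epn2, an endocytic adaptor gene, by -0.15 ± 0.09. Heyl, a Hey family target, differed by -0.53 ± 0.31 at 6 h, Mfng, a glycosyltransferase gene, by -0.43 ± 0.21 and Nrarp by -0.28 ± 0.16. The median over the 45 genes was -0.05 at 6 h and -0.01 at 24 h, and -0.01 and 0.00 over all genes.

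With pioglitazone at 6 h, 12 of the 45 were called (4 higher, 8 lower, or 26.7% against the 16.1% of all genes). Nrarp fell by 0.92 ± 0.16 (adjusted p = 0.0025), from 11.1 to 20.7 CPM without to 4.97 to 10.6 CPM with pioglitazone, with no overlap. It was also the only 1 of the 45 called for PIO + GM against GM (adjusted p = 0.0349). Mfng fell by 0.91 ± 0.21 (adjusted p = 0.0101) and Dlk1, a noncanonical ligand gene, by 1.32 ± 0.38 (adjusted p = 0.0263). Aph1b, a subunit gene of the gamma-secretase that cleaves Notch, rose by 0.57 ± 0.14, and the ubiquitin ligase genes Itch and Mib1 rose by 0.28 ± 0.07 and 0.21 ± 0.06. With the GC trend removed, 9 of the 45 were called, all lower, and Itch was at 0.05 and Mib1 at 0.03, whereas Nrarp kept -0.72 (adjusted p = 0.0037). Without the 3 libraries that stood apart 1 of the 45 was called (Maml2, a coactivator gene of the Notch complex), and Nrarp was at -0.67 (adjusted p = 0.104). The fit of the 12 libraries of the time point alone called 0 of the 45 (17 with an unadjusted p under 0.05), and DESeq2 called 16. In that fit of 12 libraries Nrarp was at -0.93 (adjusted p = 0.0555), Mfng at -0.92 (adjusted p = 0.0870) and Dlk1 at -1.32 (adjusted p = 0.102).

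With time, averaged over the treatments, 29 of the 45 were called (21 higher, 8 lower, 64.4% against 62.6% of all genes). The 6 with the lowest p were Maml2 (0.59 ± 0.06), Dtx3 of the Deltex family (1.25 ± 0.14), Mib1, which ubiquitinates ligands (-0.33 ± 0.04), Pofut1, which adds fucose to Notch (0.61 ± 0.09), the receptor gene Notch2 (0.93 ± 0.13) and Hes6 (0.62 ± 0.10). Notch2 ran from 317 to 578 CPM at 24 h and from 150 to 294 CPM at 6 h, so that, unlike those of Notch1, its ranges did not overlap. Within treatments 8 of the 45 were called in CTRL (17.8%, against 28.0% of all genes), 5 in GM (11.1% against 24.2%), 10 in PIO (22.2% against 29.0%) and 20 in PIO + GM (44.4% against 34.6%).

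The members also fell into sets that varied together between libraries of the same group. After each group's mean was subtracted, Pearson's r over 24 libraries was 0.88 between Jag1 and Hey2, 0.82 between Hey1 and Hey2, 0.80 between Hey2 and Sox2 and 0.75 each between Jag1 and Hey1 and between Lfng and Hey1. Dll1 ran against these genes, with r of -0.85 with Lfng, -0.79 with Hey1 and -0.75 with Hey2. Notch1 and Jag2 made another pair (0.82), and Hes5 was closest to Notch1 (0.54), Hes1 (0.53) and Jag2 (0.51). These values describe the libraries, each point being 1 library in which all genes share its cell makeup, depth and GC trend, and Notch1, Jag2, Hes5 and Lfng all have GC contents of 57.1% or more.

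**Figure D5:**
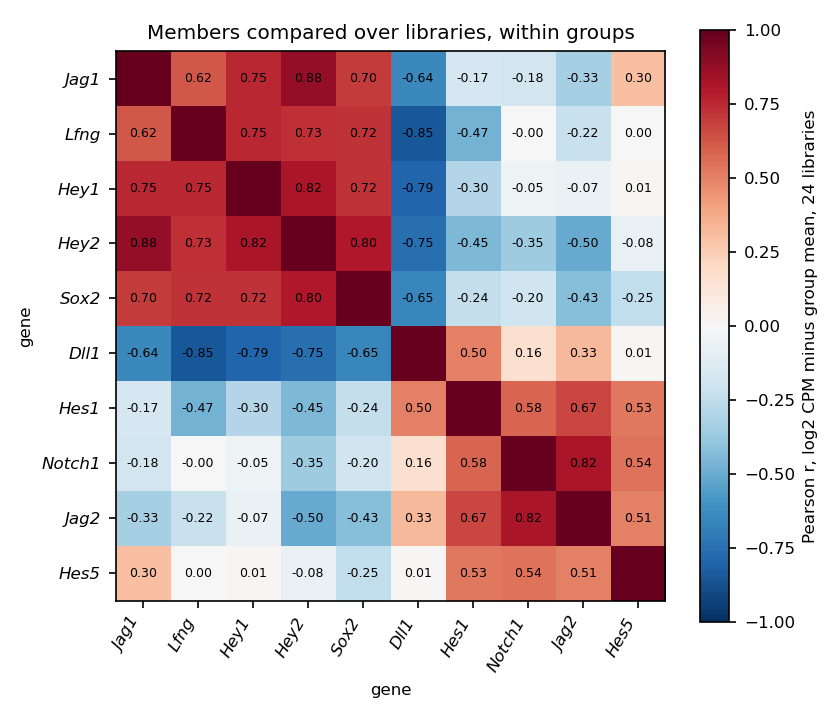
Pearson's r between each pair of the 10 genes over 24 libraries, computed on log2 CPM after subtracting the mean of each group. Jag1, Lfng, Hey1, Hey2 and Sox2 form a positive set, Dll1 is negative to it (down to -0.85), and Notch1 and Jag2 stand together at 0.82.

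Among all genes tested, those whose log2 CPM followed Hes5 most closely over the 24 libraries were Heyl (r = 0.79), Slc12a5 (0.78) and Hs3st6 (0.78). Those nearest to Sox2 were Tmem229b (0.87), Spire2 (0.86) and Fam135b (0.86), and those nearest to Hey1, the steadiest member, were Susd1 (0.88), Gad1 (0.84) and Prr15 (0.84). Exons of 3 members overlap annotated transcripts of the opposite strand, and the sources used here do not give whether the counting used strand: Notch1 overlaps 0610009E02Rik by 1068 bases and Gm13568 by 414, Dll1 overlaps A930024N18Rik by 867 and Hes5 overlaps Gm20421 by 433. None of these 4 transcripts was in the table, and if the counting did not use strand, reads of each could not be told apart from those of the member. Sox2 lies within Sox2ot with no shared exon bases.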

How the data were processed

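RNA-seq libraries of pooled organ of Corti explants were analysed from the count table that the authors deposited. It holds raw counts of reads per gene with a gene length column, made by the authors from alignments with STAR to mm10 (per the submitters' processing notes). The use of strand and of reads with several matches is not given in the sources used here. The 10 members, the 49 further pathway genes and the marker lists were chosen with earlier results of these data known. Every member is described. Of the 49 genes, those past the threshold are named, at most 6 per comparison by lowest p, or the 3 with the lowest p where none passed. Genes of similar pattern are the top 3 by Pearson's r for Hes5 (also the member with the largest SD), Sox2 and the member with the smallest SD.

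Genes were kept by edgeR's filterByExpr (16317 of 24454 genes, all 10 members), scaled by TMM and fitted with edgeR 4.0.16 in R 4.3.3 (glmQLFit and glmQLFTest) as 1 mean per group over all 24 libraries, with Benjamini-Hochberg adjustment and a threshold of 0.05. Log2 CPM used a prior count of 2. The fit was tested on simulated data. Depths of 7211357 to 15548856 counts limit Hes5, which had 3 to 169 counts. Groups and times came from the GEO labels. Comparisons at one time share control libraries, as do averaged and pairwise ones. Library pairs within groups differed by far more than sampling noise (lowest chi-square per degree of freedom 10.7). Alternatives were a replicate block, unscaled library sizes, DESeq2 size factors, other count filters, the likelihood ratio test, DESeq2 1.42.0, the libraries of 1 time point alone, a GC correction and leaving out each library. The average of gentamicin over both times and the removal of 3 libraries were chosen after seeing the data. Promoter windows and gene names were taken from RefSeq tables (GRCm38.p6) and gene models from GENCODE (GRCm38).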

Additional observations from a re-analysis of the deposited data

How the results depend on the processing

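None of the 32 differences of single members with an unadjusted p under 0.05 changed direction under any alternative. Of their values, 305 stayed on their side of the threshold under the settings other than leaving out a library, 12 newly passed it and 11 no longer did. The counts of called members kept their values under every such alternative, the replicate block aside, in all comparisons but these. For PIO + GM against GM at 6 h (0 members) DESeq2 called 1. For averaged gentamicin at 6 h (0) the likelihood ratio test and DESeq2 each called 1. For averaged pioglitazone at 6 h (2) the fit of 12 libraries called 0, the GC correction 1, the fit without 3 libraries of low GC content 0, and DESeq2 and the GC correction with a replicate block 3 each. For 24 h against 6 h in CTRL (2) unscaled library sizes gave 1, no filter 0 and leaving out the 3 libraries 3, and in GM (0) leaving out the 3 gave 1. In PIO (1) leaving out the 3 gave 0, and in PIO + GM (1) the likelihood ratio test gave 3, DESeq2 3 (Hes5 and Jag2 added in both) and leaving out the 3 gave 0. For averaged time (4) a minimum of 10 counts in every library gave 3 and the GC correction with a replicate block 5. For gentamicin averaged over both times (1) a minimum of 10 counts in every library, which Hes5 does not reach, gave 0, and leaving out the 3 libraries gave 0. Apart from the Hes5 filter the causes were not tested. Leaving out the 3 libraries left PIO + GM at 6 h with replicate 1 alone, so those counts also rest on fewer libraries.

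Leaving out single libraries gave 0 to 3 called members for PIO + GM against GM at 6 h, 0 to 4 for averaged pioglitazone at 6 h, 0 to 2 for 24 h against 6 h in CTRL, in PIO and in PIO + GM, 4 to 5 for averaged time and 0 to 1 for gentamicin over both times. All other comparisons gave 0 throughout.

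The labels do not say what a replicate number marks. The correlation of same-numbered libraries' deviations from their group means was over 0.1 in 9 of 18 pairs at 6 h (mean 0.11) and 15 of 18 at 24 h (mean 0.38). The numbers were therefore not treated as pairs, although libraries of the same number tended to deviate together at 24 h. With the replicate number as a block, PIO + GM against GM at 6 h called 2 members (Jag2, adjusted p = 0.0202, and Notch1, adjusted p = 0.0224) instead of 0, and averaged pioglitazone at 6 h called 3 instead of 2, with Jag2 added (adjusted p = 0.00883). No count of called members at 24 h changed with it. Within a time point, 8 of 12 libraries at 6 h and 11 of 12 at 24 h correlated best with a library of their own number, which is a hint from the data and not from the design. Depth limits Hes5 at 6 h, where libraries with gentamicin held at most 8 counts.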
